A study of Mus musculus with 20 samples.

Results

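Receptor tyrosine kinases are described here through 49 mouse genes, taken by symbol from the 51826 genes of the count table. Each of the 49 symbols matched 1 gene identifier. No cut-off on a measured value picked them, but the list and the tests were chosen with earlier results of these data known. They cover the receptors of the EGF, insulin, PDGF, VEGF, FGF, MET, TAM, TIE, TRK, ROR, DDR, RET, ROS and Eph families, with Ptk7 and Ryk, but not every receptor tyrosine kinase of the mouse. Receptor tyrosine kinases cross the cell membrane once, bind a ligand outside the cell and, in most members, phosphorylate tyrosines inside it, which passes growth, survival and migration signals to the cell. Many of them mark a cell type: Kdr, Tie1 and Tek are best known from endothelium, Csf1r from macrophages, Kit from mast cells, Pdgfra and Ddr2 from mesenchyme and Musk from skeletal muscle. In sarcomas, tumours of mesenchymal origin, RNA of these receptors can therefore come from tumour cells and from the blood vessels, immune cells, muscle or lung around them.

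RNA was measured in 14 lung metastases and in the 6 primary sarcomas with which they were matched. The word set stands for a primary tumour together with the metastases matched to it, and there were 4 metastases in set 1, 4 in set 2, 2 in set 3, 1 in set 4, 1 in set 5 and 2 in set 6. A label such as 2-3 gives the set and then the number of the metastasis, and 5-x had no number. All 20 samples were labelled as mouse tumour tissue of mixed genetic background; the tumour model, driver mutation, site, sex and age were not given, and separate animals were not marked, so each p-value covers only the spread among these samples, which may be partly technical.

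The libraries held 20603620 to 36824370 counts. Some of them stood apart in ways that touch the receptors. The 15 lung epithelium genes checked summed to 20.8 to 14300 CPM (counts scaled to the library total after TMM normalization, median 757) in metastases and to 4.78 to 77.1 CPM in primary tumours. Metastases 2-3 and 2-4 lay within the primary tumours' range, at 44.0 and 20.8 CPM, and 5 hepatocyte genes reached 10000 and 1150 CPM in them, against at most 3.62 CPM in any primary tumour. Skeletal muscle genes summed to 15 to 3730 CPM in metastases and to at least 5100 CPM in primary tumours 1, 2, 3 and 5. Primary tumours 4 and 6 held little RNA of host cells: 2.34 and 7.37 CPM of 12 endothelium genes, 11.8 and 34.4 CPM of 12 macrophage genes and 9.36 and 2.65 CPM of 15 skeletal muscle genes. The 12 fibroblast and pericyte genes summed to 5120 and 8360 CPM in them, but the collagen genes Col1a2 and Col3a1 made up 4820 and 7750 CPM of this, 7 of the 12 genes were under 5 CPM in each, and the mean log2 CPM of the list was 2.29 and 3.10, against at least 7.31 in the other primary tumours. Over the 2000 most variable genes, only 6 of 14 metastases were most like their own primary tumour. Primary tumours 2 and 3 were each other's nearest library (r = 0.987), and metastasis 2-4 lay closest to 6-2 (r = 0.888). The marker genes of metastases 2-3 and 2-4 thus went against their label as lung metastases. Whether they came from another site, or whether a set label was mixed up, was not tested, and the block takes the sets as labelled. No 2 libraries of a group were as alike as 1 library sequenced again, since the chi-square of their counts was 10.7 or more per degree of freedom. This check sets counts against sampling noise only, so it cannot tell separate tumours from 2 preparations of 1 sample.

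Axl, a receptor of the TAM family that binds Gas6, had the highest level of the 49 per kilobase of exon, with a mean of 165.4 CPM per kb over the 20 libraries, and it ranked first in every library but metastasis 3-2, where Ddr2 did. Ddr2, a receptor for fibrillar collagen, followed at 56.41 CPM per kb. Csf1r, the receptor for macrophage colony-stimulating factor, averaged 45.27 CPM per kb, Fgfr1 38.35 and Pdgfra 35.31. Met, the receptor for hepatocyte growth factor, averaged 33.29 CPM per kb, the Wnt-binding receptor Ryk 27.04 and the ephrin receptor Epha2 25.55. The 3 receptors that stood highest in a library took between 32.8% and 79.8% of its summed receptor level per kb. By group, Axl averaged 135.8 CPM per kb in metastases and 234.5 in primary tumours, Ddr2 41.99 and 90.05, and Pdgfra 16.24 and 79.80, while Fgfr1 averaged 44.46 in metastases and 24.10 in primary tumours. At the other end, Alk, Ntrk3, Epha5, Erbb4 and Ltk had the lowest levels per kb.

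**Figure D1:**
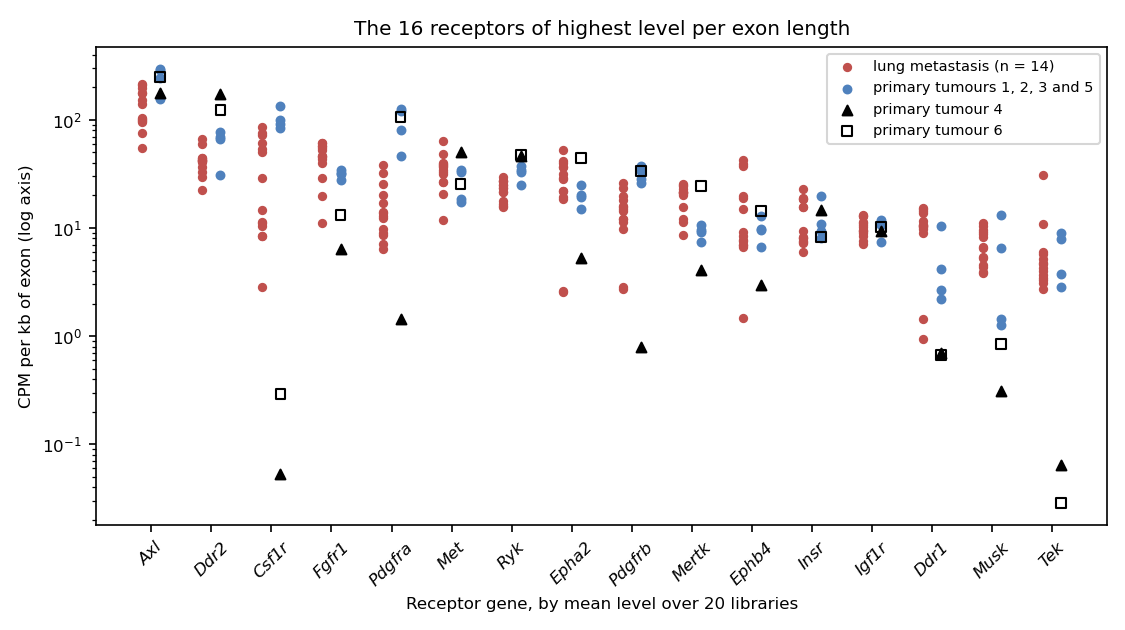
Level of the 16 receptors of highest mean, in CPM per kb of exon on a log axis, with 14 lung metastases (red) left of 6 primary tumours (blue circles, with primary tumour 4 as a filled triangle and primary tumour 6 as an open square). Axl stood highest in mean level at 165.4 CPM per kb, and Csf1r and Tek lay lowest in primary tumours 4 and 6.

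Without regard to length, 11 receptors were above 10 CPM in all 20 libraries: Axl, Ddr2, Epha2, Fgfr1, Flt1, Igf1r, Insr, Mertk, Met, Pdgfra and Ryk. Igf1r, the receptor for insulin-like growth factors, lay within a narrow range of 119 to 219 CPM in metastases and 123 to 199 CPM in primary tumours. Its difference between the groups was -0.01 ± 0.16 on the log2 scale (SE). Insr, the insulin receptor, ranged from 82.7 to 314 CPM in metastases and from 110 to 272 CPM in primary tumours. Met stood at 90.3, 272 and 491 CPM in metastases (lowest, median and highest), against 134, 225 and 386 CPM in primary tumours, and its difference of 0.41 ± 0.25 did not pass (adjusted p = 0.294). Its other family member Mst1r, the receptor for macrophage-stimulating protein, reached at most 4.42 CPM in metastases and 4.43 CPM in primary tumours. Epha2 stood at 11.8, 134 and 243 CPM in metastases, against 24.6, 92.5 and 207 CPM in primary tumours, with metastases 3-2 and 4-1 lowest; its difference was -0.09 ± 0.39 (0.909).

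The primary tumours poor in host RNA show which receptors remained without much vessel, macrophage or muscle RNA. Above 10 CPM, primary tumour 4 had 13 receptors and primary tumour 6 had 19, against 21 to 34 in the other 18 libraries. Both shared 12 of them, the 11 listed above and Ephb4, a receptor for ephrin-B2. In primary tumour 4, 15 receptors had no count at all, which allows up to 0.153 CPM each: Kit, Kdr, Flt4, Fgfr3, Fgfr4, Mst1r, Tie1, Ntrk2, Ror2, Ret, Ros1, Alk, Ltk, Epha5 and Ptk7. In primary tumour 6, Ntrk2, Ltk and Ephb1 had none, which allows up to 0.101 CPM. The VEGF receptors parted here: Flt1 stood at 51.0 CPM in primary tumour 4 and 10.3 CPM in primary tumour 6, while Kdr stood at 0 and 0.268 CPM and Tie1 at 0 and 0.0335 CPM. The PDGF receptors parted the same 2 tumours, with Pdgfra at 14.4 CPM in primary tumour 4 and 1055 CPM in primary tumour 6, and Pdgfrb, the receptor of pericytes and fibroblasts, at 4.33 and 185 CPM. Ddr2 was higher in both, at 1603 and 1141 CPM, than in any other library, where the highest value was 717 CPM. In bulk tissue, fewer cells of a type and less RNA per cell cannot be told apart.

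**Figure D2:**
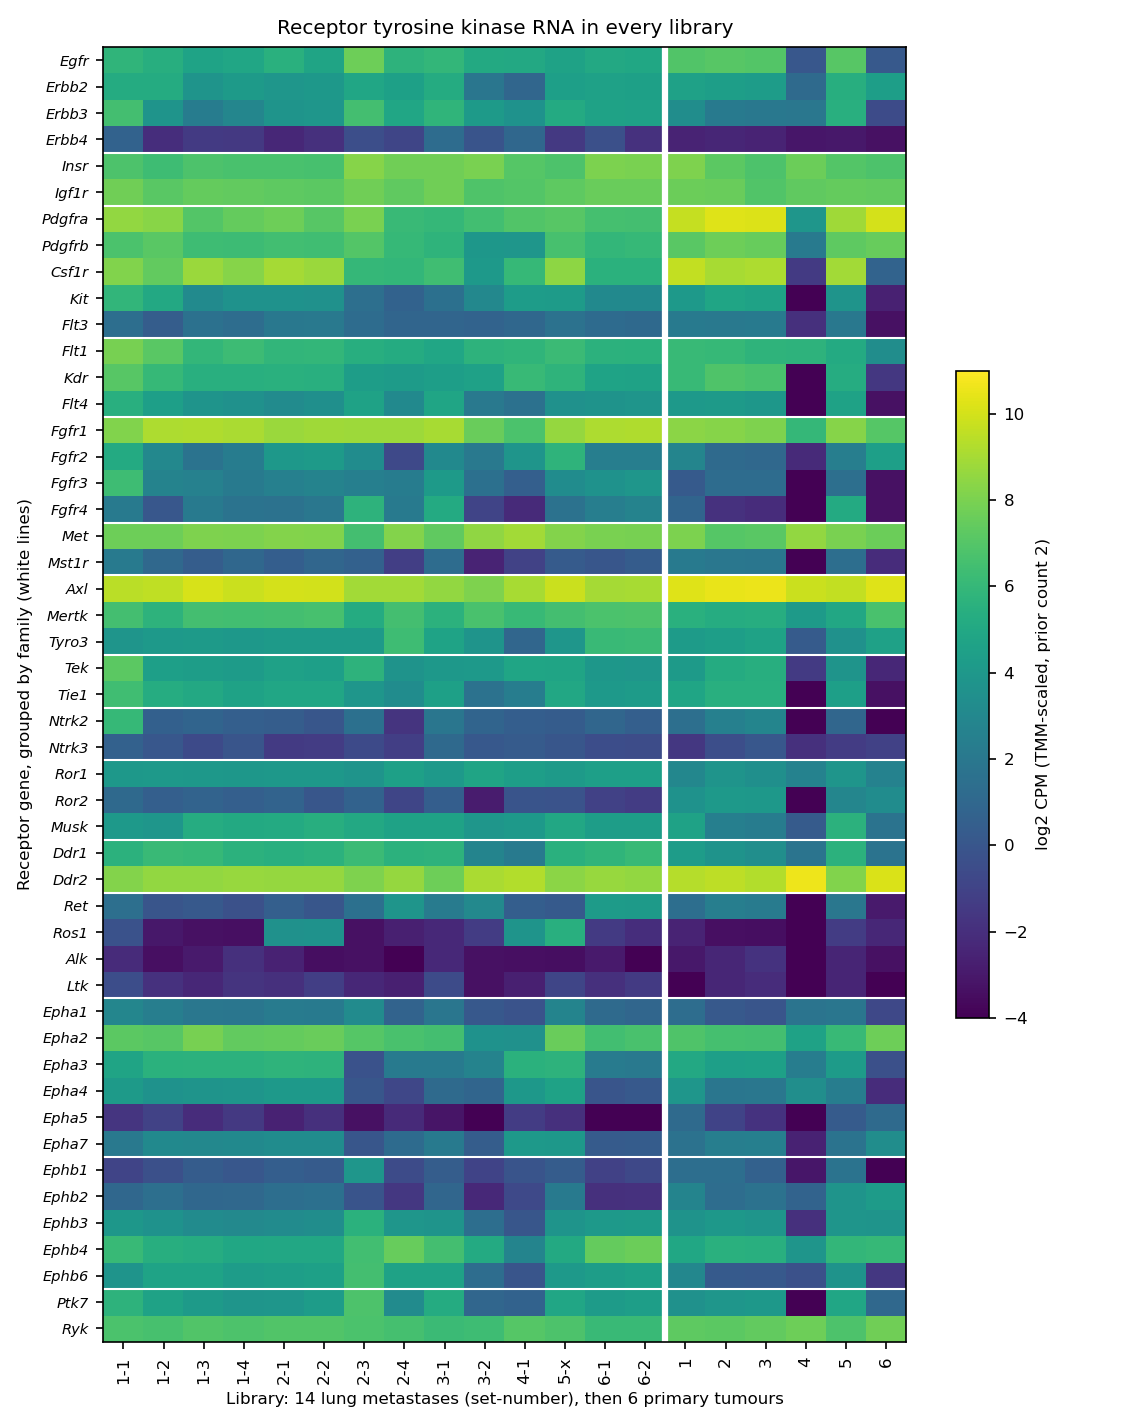
Log2 CPM (TMM-scaled, prior count 2) of all 49 receptors, grouped by family between white lines, in 14 lung metastases (left) and 6 primary tumours (right). Axl and Ddr2 are bright in every column, and primary tumours 4 and 6 are dark for endothelial and macrophage receptors such as Kdr, Tie1 and Csf1r.

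The first comparison asked which receptors differed between lung metastases and their primary tumours, with the set as a block. Of 46 receptors tested, 7 were higher and 5 lower in metastases at an adjusted p under 0.05 (edgeR quasi-likelihood test, Benjamini-Hochberg over 18452 genes). That is 26.1% of them, against 13.8% of all genes tested (7.34% higher, 6.44% lower), and the median difference was 0.41 on the log2 scale for the receptors and 0 for all genes. Alk, Ltk and Epha5 were too low to test. The changes split families: Ror1 rose and Ror2 fell, Mertk rose and Axl fell, and Ddr1 rose and Ddr2 fell. When the metastases of each set were summed, so that each set gave 1 value per group, no receptor passed (0 of 45 tested by edgeR, which called 360 genes in all; 9 rises and 5 falls among the receptors had an unadjusted p under 0.05). Lung epithelium and skeletal muscle RNA moved with the groups as given above: 3 receptors were higher and 5 lower once the model held the lung epithelium index (defined below) as a covariate, and 17 were higher and 6 lower once it held that of skeletal muscle. Without sets 4 and 6, 1 was higher, Mertk, and 4 were lower, Pdgfra and Ror2 among them; the other 9 calls were lost. Without metastases 2-3 and 2-4, 5 were higher and 5 lower, and Fgfr1 (0.77, adjusted p = 0.0655) and Ddr1 (1.59, 0.0514) did not pass.

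**Figure D3:**
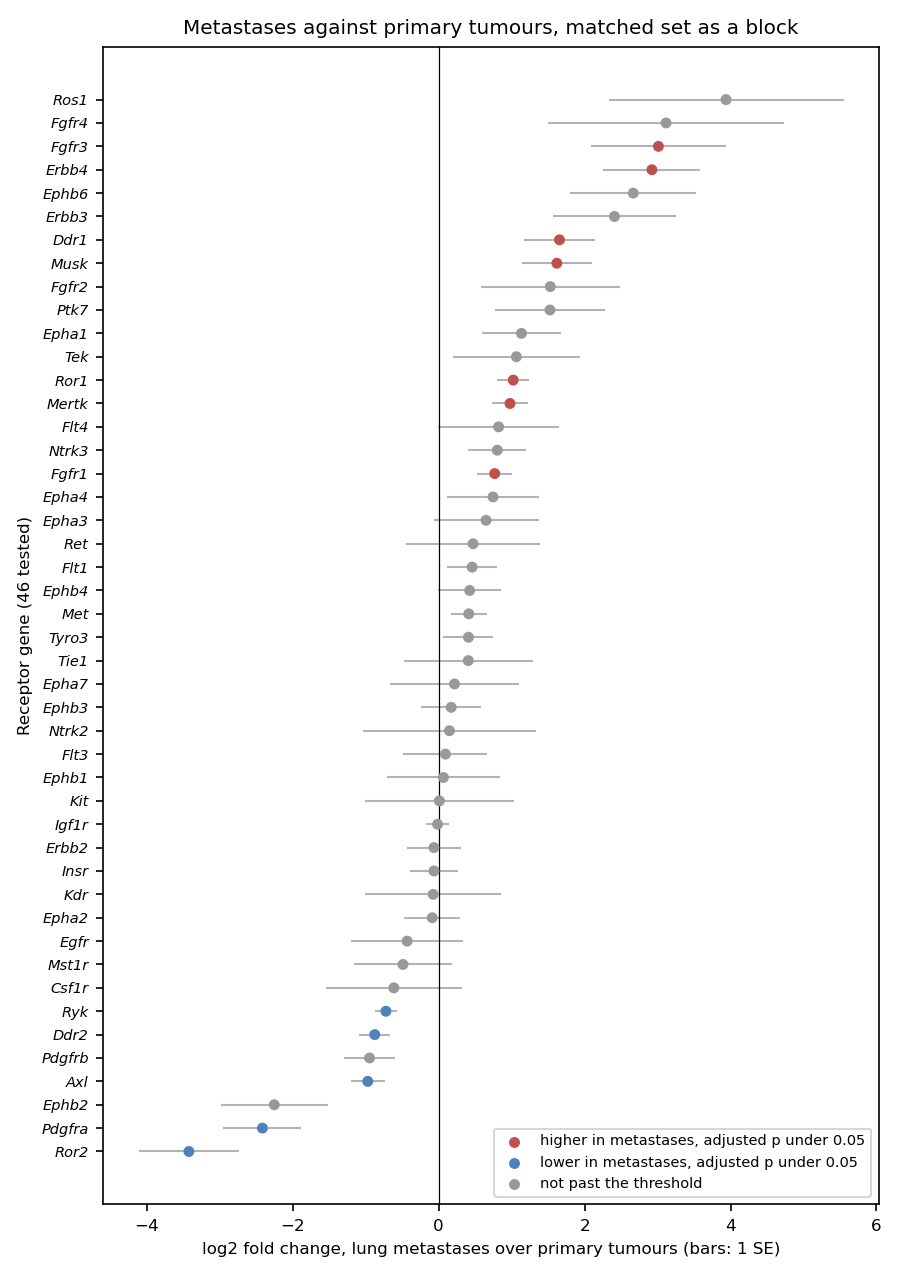
Log2 fold change of lung metastases over primary tumours for the 46 receptors tested, with bars of 1 SE; red points were higher, blue points lower and grey points did not pass an adjusted p of 0.05. Ror2 lies farthest to the left at -3.42, and the widest bars belong to receptors of few or uneven counts such as Ros1 and Fgfr4.

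Gene positions below are those of the mm10 (GRCm38) annotation. Among the ROR receptors, which bind Wnt5a, Ror2 (chr13:53109312-53286124, minus strand) stood at 0.0724, 1.12 and 2.09 CPM in metastases (lowest, median and highest), against 0, 11.1 and 17.6 CPM in primary tumours. Every primary tumour but the fourth, which had no count, was above all metastases. Ror2 fell by 3.42 ± 0.69 on the log2 scale (SE, adjusted p = 0.00545), in 5 of 6 sets. Ror1 (chr4:100095791-100444765, plus strand) stood at 13.6, 16.7 and 26.6 CPM in metastases, against 6.13, 9.32 and 14.3 CPM in primary tumours, so the groups overlapped only at the edge. Ror1 rose by 1.02 ± 0.22 (adjusted p = 0.00731), in 6 of 6 sets. Leaving out set 2 took the Ror2 call away (adjusted p = 0.0566), and leaving out set 1 took that of Ror1 (0.0766). Musk (chr4:58285960-58374303, plus strand), a receptor of the neuromuscular junction, stood at 14.5, 24.9 and 41.8 CPM in metastases, against 1.17, 5.11 and 49.8 CPM in primary tumours. Primary tumour 5 was the highest of all. Musk rose by 1.62 ± 0.48 (adjusted p = 0.0352), but only in 4 of 6 sets, and the call was lost without set 2, 3, 4 or 6 (0.0783 to 0.179) and with no block (0.308).

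The Musk promoter is shown because E-boxes bind the myogenic factors that act on muscle genes. The sequence is RefSeq's for GRCm38.p6, from 250 bases before to 50 after the start, at chr4:58285712-58286011 on the plus strand, with matches to the E-box CANNTG (the same on both strands) in capitals:

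Musk: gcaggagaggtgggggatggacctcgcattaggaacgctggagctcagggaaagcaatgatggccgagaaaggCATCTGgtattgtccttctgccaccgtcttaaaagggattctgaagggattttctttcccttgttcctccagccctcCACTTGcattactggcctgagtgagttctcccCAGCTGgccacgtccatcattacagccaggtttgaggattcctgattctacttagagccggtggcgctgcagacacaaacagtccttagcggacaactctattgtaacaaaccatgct

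It held 3 matches, against a median of 1 over all 32851 promoters of this length. At least 1 match was held by 72.3% of all promoters and by 30 of 49 promoters of the 42 receptors with an entry. The share with as many as 3 was not counted.

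In the PDGF receptor family, Pdgfra (chr5:75152292-75198215, plus strand), a receptor of mesenchymal cells, stood at 64.0, 133 and 384 CPM in metastases, against 14.4, 934 and 1255 CPM in primary tumours. All metastases lay below every primary tumour except the fourth. Pdgfra fell by 2.42 ± 0.53 on the log2 scale (adjusted p = 0.00858), in 5 of 6 sets, with set 4 as the exception, and the call was lost without set 2 (0.0742). Pdgfrb stood at 14.8, 80.1 and 144 CPM in metastases, against 4.33, 170 and 205 CPM in primary tumours; its difference of -0.95 ± 0.35 did not pass (0.0843). Csf1r ranged from 16.4 to 496 CPM, with a median of 126, in metastases and from 0.305 to 782 CPM, with a median of 507, in primary tumours, and its difference of -0.61 ± 0.93 did not pass (0.71). Reads of Csf1r and Pdgfra cannot be told from those of genes annotated across them (Hmgxb3 on the other strand of Csf1r; Mir7025, Gm42802 and Gm42803 at Pdgfra), as the strand setting of the counting was not given.

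The TAM receptors, which bind the bridging proteins Gas6 and protein S, moved apart. Axl (chr7:25757273-25788705, minus strand) stood at 279, 617 and 1086 CPM in metastases, against 778, 1237 and 1492 CPM in primary tumours. The groups overlapped, as metastases of sets 1, 2 and 5 reached the primary tumours' range. Axl fell by 0.97 ± 0.23 on the log2 scale (adjusted p = 0.0126), in 5 of 6 sets, and the call was lost without set 2 or set 6 (0.0506 and 0.0606). Mertk (chr2:128698956-128802894, plus strand), the TAM receptor known for the uptake of dying cells, stood at 37.0, 92.0 and 110 CPM in metastases, against 17.7, 40.2 and 105 CPM in primary tumours. Only primary tumour 6 was above the metastases' median. Mertk rose by 0.98 ± 0.25 (0.0183), in 6 of 6 sets, but not without set 1 or set 2 (0.0967 and 0.0604), with no block (0.0533), or with the lung epithelium or skeletal muscle index as a covariate (0.368 and 0.096). Tyro3 did not pass (0.41 ± 0.34, adjusted p = 0.47).

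Of the collagen receptors, Ddr1 (chr17:35681567-35704621, minus strand), which is known mainly from epithelia, stood at 4.53, 50.1 and 73.4 CPM in metastases, against 3.18, 11.7 and 49.3 CPM in primary tumours. Metastases 3-2 and 4-1 were low, and primary tumour 5 was just below the metastases' median. Ddr1 rose by 1.66 ± 0.49 on the log2 scale (adjusted p = 0.0346), in 5 of 6 sets, but not without set 1, 2 or 6 (0.103 to 0.157) or with no block (0.0649). Ddr2 (chr1:169972307-170110762, minus strand) stood at 209, 389 and 612 CPM in metastases, against 284, 682 and 1603 CPM in primary tumours, and primary tumour 5 was below the metastases' median. Ddr2 fell by 0.88 ± 0.21 (0.014), in 5 of 6 sets, but not without set 1, 2 or 6 (0.0636 to 0.0907). Without sets 4 and 6 together, whose primary tumours were highest for Ddr2, the difference was -0.58 (0.133). A gene is annotated across each on the other strand (Gm4577 for Ddr1, 3110045C21Rik for Ddr2).

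Among the FGF receptors, Fgfr1 (chr8:25513654-25575718, plus strand) stood at 110, 455 and 601 CPM in metastases, against 63.0, 292 and 336 CPM in primary tumours. It was lowest in set 4 in both groups. Fgfr1 rose by 0.77 ± 0.24 on the log2 scale (adjusted p = 0.0443), in 6 of 6 sets, but not without set 1, 2, 4 or 6 (0.0642 to 0.152) or with no block (0.0754), and it was 1.16 (0.0632) once the model held lung epithelium. Fgfr3 (chr5:33721674-33737068, plus strand) stood at 1.41, 6.22 and 79.7 CPM in metastases, against 0, 1.75 and 2.69 CPM in primary tumours, and metastasis 1-1 was far above the rest. Fgfr3 rose by 3.01 ± 0.92 (0.0405), in 6 of 6 sets; with any of the 6 sets left out it did not pass (0.0507 to 0.105). Its difference was 1.62 (adjusted p = 0.431) once the model held lung epithelium. Metastasis 1-1 also had the most RNA of lung epithelium and endothelium, at 14300 and 2700 CPM; its part in the Fgfr3 value was not tested. Fgfr1 has Gm16159 and Fgfr3 has G630022F23Rik annotated on the other strand. Fgfr2 (1.53 ± 0.95) and Fgfr4 (3.12 ± 1.62) did not pass.

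In the EGF receptor family, Erbb4 (chr1:68032186-69108059, minus strand), a receptor for neuregulins, stood at 0.136, 0.393 and 2.43 CPM in metastases, against 0.0335, 0.0849 and 0.123 CPM in primary tumours. It was the only receptor whose groups did not overlap, as was the case for 0.932% of all genes tested in the same direction and 0.461% in the other. The primary tumours' values rest on 1 to 4 counts each. Erbb4 rose by 2.92 ± 0.67 on the log2 scale (adjusted p = 0.01), in 6 of 6 sets. It kept the call in 12 of 14 alternatives, not with lung epithelium as a covariate (0.0937) or without sets 4 and 6 (0.0596). The remaining alternatives, that of summed metastases among them, gave no adjusted p for Erbb4, so they neither kept nor lost its call. Egfr stood at 24.8, 33.9 and 207 CPM in metastases, against 0.967, 123 and 138 CPM in primary tumours, with metastasis 2-3 at the top and primary tumours 4 and 6 at the bottom. Erbb2, Erbb3 and Egfr did not pass (adjusted p = 0.933, 0.0698 and 0.757). Of the remaining called members, Ryk (chr9:102834917-102908305, plus strand) stood at 70.6, 106 and 134 CPM in metastases, against 113, 163 and 213 CPM in primary tumours, and only primary tumour 5 lay within the metastases' range. Ryk fell by 0.72 ± 0.16 (0.00731), in 5 of 6 sets, and kept the call in 14 of 16 alternatives. Other calls were less stable: Fgfr1 lost its call in 11 of 16, Musk in 10 of 16, Fgfr3 in 10 of 15 and Ddr1 in 8 of 16. Mertk and Ddr2 lost theirs in 6 of 16 each, Axl in 4, Ror1 in 3, and Pdgfra and Ror2 in 2 each.

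**Figure D4:**
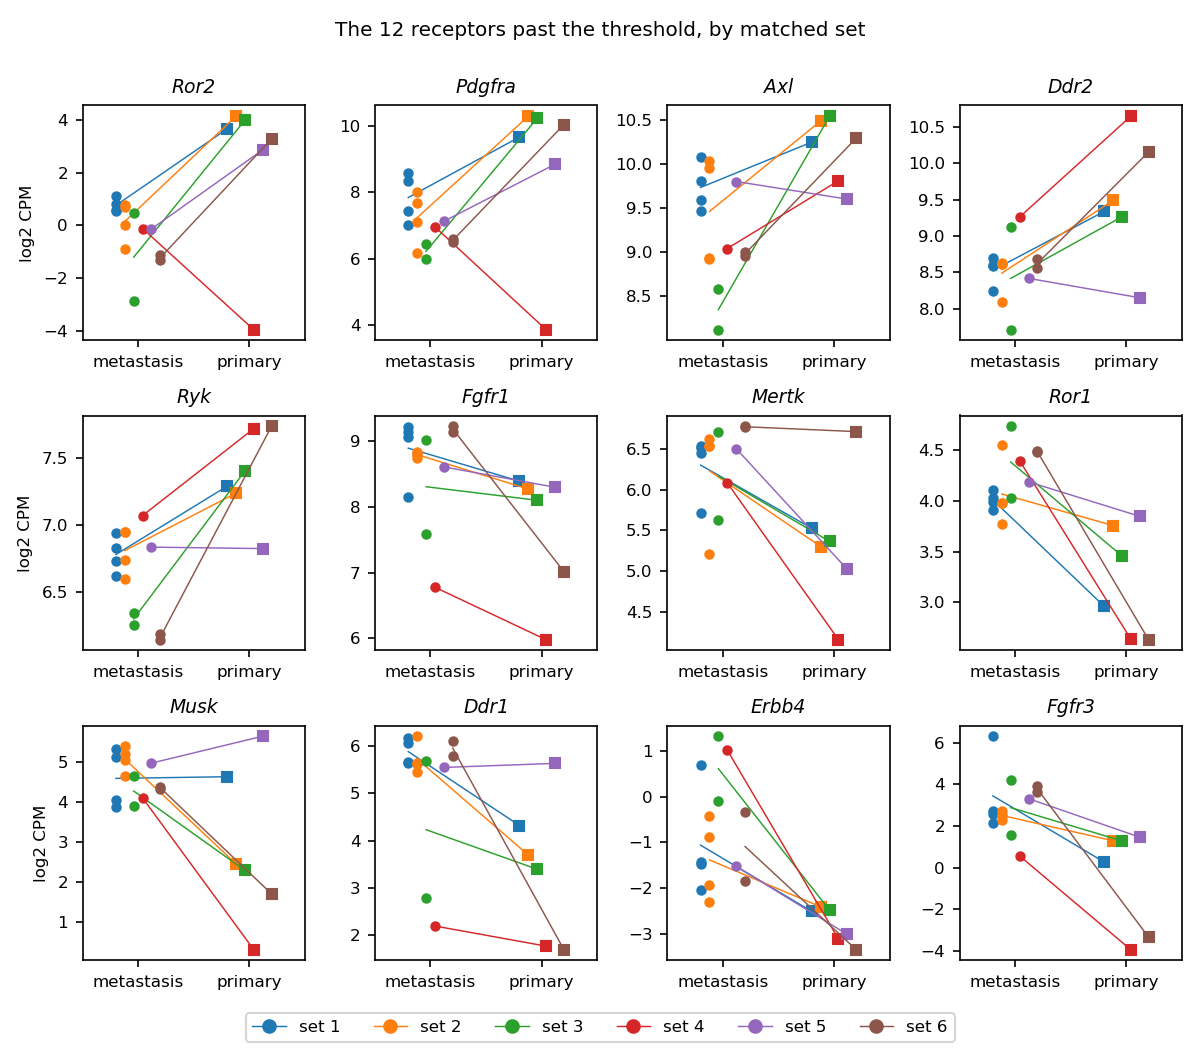
Log2 CPM of the 12 receptors called between the groups, with the metastases of each set (circles) left of its primary tumour (square) and a line from the mean of the metastases to the primary tumour. Ror2 and Pdgfra are lower in metastases in 5 sets, with set 4 (red) as the exception, and Erbb4, Fgfr1, Fgfr3, Mertk and Ror1 are higher in all 6.

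No Eph receptor, the family that reads membrane-bound ephrins, was called (0 of 10 tested by edgeR; 2 had an unadjusted p under 0.05, 3 passed in DESeq2 and 2 in limma voom). Ephb2 (-2.25 ± 0.73, adjusted p = 0.051, lower in 6 of 6 sets) and Ephb6 (2.67 ± 0.87, 0.0513, higher in 6 of 6) were nearest, and both passed with no block (0.0215 and 0.0381) and with either marker index as a covariate. Ephb2 stood at 0.145, 1.92 and 4.49 CPM in metastases, against 1.63, 4.89 and 19.0 CPM in primary tumours. Ephb6 stood at 0.887, 21.8 and 93.1 CPM in metastases, against 0.268, 1.08 and 12.8 CPM in primary tumours. Among the others, Epha3 ranged from 0.788 to 53.1 CPM in metastases and from 0.737 to 33.7 CPM in primary tumours, and Epha4 from 0.506 to 24.7 CPM in metastases and from 0.168 to 14.7 CPM in primary tumours. Ephb1 stood at 14.9 CPM in metastasis 2-3 and at most at 3.19 CPM in any other library. Ptk7, a Wnt pathway receptor without an active kinase, was also highest in metastasis 2-3, at 112 CPM, and did not pass between the groups (1.53 ± 0.75, adjusted p = 0.191).

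Ligands of these receptors moved in both directions. Of 62 listed, 55 could be tested: 6 were higher and 7 lower in metastases (23.6%, against 13.8% of all genes tested, with a median difference of -0.09 on the log2 scale). With the metastases of each set summed, 1 was higher, Angpt1, and 0 lower (edgeR; before adjustment, 9 rises and 8 falls had a p under 0.05). The angiopoietins, ligands of Tek, were both higher. Angpt1 averaged 88.4 ± 44.4 CPM in metastases and 37.9 ± 38.1 CPM in primary tumours (SD, n = 14 and 6) and rose by 1.62 ± 0.27 (adjusted p = 0.00203), and Angpt2 averaged 25.0 ± 17.8 CPM in metastases and 7.14 ± 3.49 CPM in primary tumours and rose by 1.76 ± 0.40 (0.00984), each in 6 of 6 sets. Fgf1, a ligand of the FGF receptors, rose by 1.95 ± 0.57 (0.0335), Nrg4, which binds Erbb4, by 2.39 ± 0.72 (0.0382), Efnb1, a membrane ligand of Eph receptors, by 1.56 ± 0.39 (0.0162) and Gdnf, which signals through Ret, by 1.18 ± 0.38 (0.0484). In the other direction, Epgn, an EGF receptor ligand, fell by 2.47 ± 0.38 (0.00136) in 6 of 6 sets, with low levels of 0.197 ± 0.123 CPM in metastases and 1.13 ± 0.748 CPM in primary tumours. Csf1, the ligand of Csf1r, averaged 130 ± 100 CPM in metastases and 498 ± 434 CPM in primary tumours and fell by 2.28 ± 0.64 (0.027), in 6 of 6 sets. Hbegf, another EGF receptor ligand, fell by 1.13 ± 0.32 (0.0263), Pdgfa, a ligand of Pdgfra, by 0.67 ± 0.17 (0.0189), Vegfb, a ligand of Flt1, by 0.86 ± 0.19 (0.00845), Flt3l, the ligand of Flt3, by 1.39 ± 0.33 (0.0127) and Bdnf, which binds Ntrk2, by 1.24 ± 0.35 (0.0275). Several were smaller once the model held lung epithelium, when the difference was 0.40 for Fgf1 (adjusted p = 0.758), 0.99 for Angpt1 (0.085), -0.55 for Bdnf (0.532) and -0.29 for Pdgfa (0.519). Gdnf lost its call in 10 of 16 alternatives, Nrg4 in 9 and Fgf1 in 8. Without sets 4 and 6, 3 ligands were higher and 3 lower; Csf1 was then at -1.42 (0.118) and Hbegf at -0.57 (0.135).

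Counting both directions, co-receptors and regulators were called about as often as other genes, but every call was a fall. Of 39 listed, 36 could be tested, and 0 were higher and 6 lower in metastases (16.7%, against 13.8% of all genes tested, 7.34% higher and 6.44% lower). The median difference was 0.01 (edgeR, with 2 higher at an unadjusted p under 0.05 and 2 higher by DESeq2). Once the model held lung epithelium 3 were higher and 3 lower, and with skeletal muscle held 8 were higher and 6 lower. Which of them passed thus depended on the model, while none of the 6 called here changed sign in any alternative. Lrig3, a member of the LRIG family of membrane proteins that act on these receptors, averaged 6.70 ± 4.05 CPM in metastases and 26.2 ± 12.1 CPM in primary tumours and fell by 2.20 ± 0.39 (adjusted p = 0.0028), in 6 of 6 sets and in all 16 alternatives. The adaptor Sh2b3 fell by 0.82 ± 0.17 (0.00686) and the phosphatase Ptpn11 by 0.53 ± 0.13 (0.0121). Irs1, a docking protein of the insulin receptors, fell by 0.63 ± 0.18 (0.0328), the adaptor Grb10 by 2.02 ± 0.63 (0.043) and Igf2r, which clears Igf2, by 0.50 ± 0.16 (0.0455). Igf2r lost its call in 10 of 16 alternatives, and with the lung epithelium index it was at -0.22 (0.615). Grb10 lost its call in 8 of 16; it was at -1.27 without set 6 (0.225) and at -0.90 without sets 4 and 6 (0.373). Irs1 lost its call in 8 and Ptpn11 in 7.

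Several receptors followed the host tissue of a library, as did many other genes. For each of 4 cell types, the mean log2 CPM of its marker genes served as an index, and each receptor's log2 level was fitted against it. Counting slopes of both directions, the receptors' share lay near that of all genes for endothelium, macrophages and lung epithelium. The gap was widest for skeletal muscle, at 23.9% against 14% of all genes. On the other indices every slope called for a receptor was positive. Counting positive slopes alone, the shares there were 26.1% against 13.3% of all genes for endothelium and 19.6% against 12.8% for macrophages. For lung epithelium they were 8.7% against 5.02%. On the endothelium index, with set and group in the model, 12 of 46 receptors had a positive slope and 0 a negative one (26.1%, against 21.8% of all genes tested, 13.3% positive and 8.48% negative; edgeR, with 1 negative slope at an unadjusted p under 0.05). The slopes were 1.32 ± 0.13 log2 units per index unit for Tie1 (adjusted p = 1.13e-05), 1.27 ± 0.14 for Kdr (3.83e-05) and 1.33 ± 0.15 for Kit (4.67e-05), followed by Csf1r, Tek, Fgfr3, Ntrk2, Mst1r, Flt3, Flt4, Epha3 and Egfr. Tie1 stood at 3.11, 23.9 and 84.9 CPM in metastases, against 0, 25.1 and 44.9 CPM in primary tumours; Kdr, the main VEGF receptor of endothelium, stood at 19.1, 43.3 and 136 CPM, against 0, 54.5 and 115 CPM. Both were highest in metastasis 1-1 among metastases and lowest in primary tumours 4 and 6. Kit, which also marks mast cells, stood at 1.55, 10.5 and 57.6 CPM in metastases, against 0, 15 and 28.2 CPM in primary tumours. Tek, the angiopoietin receptor, stood at 12.8, 20.9 and 146 CPM in metastases, against 0.134, 15.6 and 42.1 CPM in primary tumours. Without sets 4 and 6, the slopes were 0.96 for Tie1 (0.00441), 0.75 for Kdr (0.00328), 1.09 for Kit (0.0183) and 1.07 for Fgfr3 (0.0462), 6 receptors had a positive and 1 a negative slope, and that of Egfr was -0.22 (0.651). Flt1, the VEGF receptor present in primary tumour 4, did not pass (0.25 ± 0.09, adjusted p = 0.074).

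The promoters of Tie1 and Kdr, the receptors of smallest p on this index, are shown because ETS factors act on endothelial genes. They are RefSeq sequences of GRCm38.p6 over the same window, with matches to the ETS motif AGGAAG on either strand in capitals. Tie1 lies at chr4:118489800-118490099 and Kdr at chr5:75978406-75978705, both on the minus strand:

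Tie1: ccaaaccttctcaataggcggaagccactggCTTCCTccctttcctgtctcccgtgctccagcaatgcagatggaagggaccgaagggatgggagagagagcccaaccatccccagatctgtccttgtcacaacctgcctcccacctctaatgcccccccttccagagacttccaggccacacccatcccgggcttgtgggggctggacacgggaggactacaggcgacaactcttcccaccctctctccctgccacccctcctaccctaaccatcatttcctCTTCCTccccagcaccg

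Kdr: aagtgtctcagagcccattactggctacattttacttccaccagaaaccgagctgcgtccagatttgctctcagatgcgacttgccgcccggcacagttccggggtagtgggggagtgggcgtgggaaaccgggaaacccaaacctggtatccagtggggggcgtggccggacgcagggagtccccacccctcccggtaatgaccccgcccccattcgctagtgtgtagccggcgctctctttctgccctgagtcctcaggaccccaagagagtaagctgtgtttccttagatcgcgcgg

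The Tie1 window held 2 matches and the Kdr window 0, which says only that these letters are not in this window. The motif was found in 35.4% of all 32851 promoters and in 14 of 49 promoters of the 42 receptors with an entry.

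On the macrophage index 9 receptors had a positive slope (19.6%, against 21.9% of all genes tested, 12.8% positive and 9.1% negative; 0 receptors had a negative slope, also at an unadjusted p under 0.05). Csf1r led with 1.25 ± 0.07 log2 units per index unit (adjusted p = 3.03e-08), and it kept this without sets 4 and 6 (1.13, adjusted p = 0.000272). Tie1 (1.24 ± 0.18, 0.000178) and Kdr (1.18 ± 0.17, 0.00024) also had positive slopes here; without sets 4 and 6 that of Kdr did not pass (0.0619). The endothelium and macrophage indices are both low in primary tumours 4 and 6, so these slopes cannot be told apart in those libraries.

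On the skeletal muscle index 9 receptors had a positive slope and 2 a negative one (23.9%, against 14% of all genes tested, 8.45% positive and 5.52% negative). Egfr had 0.61 ± 0.08 (adjusted p = 0.000611), Flt4, the VEGF receptor of lymphatic vessels, 0.68 ± 0.12 (0.0032) and Ephb1 0.66 ± 0.12 (0.00399), with Fgfr4, a receptor of muscle progenitors, at 0.97 ± 0.21 (0.00936). Flt3, Mst1r, Tek, Tie1 and Ptk7 made up the rest of the positive slopes. Of the receptors with a positive slope here, Flt3, Flt4, Mst1r, Tek and Tie1 were also called on both the endothelium and the macrophage index. Ddr2 (-0.13 ± 0.03, 0.0175) and Ryk (-0.08 ± 0.03, 0.0465) ran the other way. The calls on skeletal muscle depended on sets 4 and 6, whose primary tumours were poor in muscle RNA. Without these sets no receptor passed (0 of 48 tested by edgeR, with 12 positive and 2 negative at an unadjusted p under 0.05). The same primary tumours were low in the endothelium and macrophage indices, so the slopes on muscle cannot be told from those in these libraries.

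The slope on lung epithelium was fitted among the 14 metastases alone, with set as a block. Sets 4 and 5 have 1 metastasis each, which the block takes up whole, so metastases 4-1 and 5-x do not enter the slope. There 4 receptors had a positive slope and 0 a negative one (8.7%, against 6.99% of all genes tested, 5.02% positive and 1.97% negative; edgeR, with 3 negative at an unadjusted p under 0.05). Ros1, known from gene fusions in human lung tumours, stood at 11.7, 12.6, 13.6 and 44.5 CPM in metastases 2-1, 2-2, 4-1 and 5-x and at most at 0.779 CPM in the other 16 libraries. Its slope was 1.07 ± 0.09 (adjusted p = 0.000193) and passed in all 9 alternatives, including 1.34 with no block, where metastases 4-1 and 5-x do enter, though metastasis 1-1, with the most lung epithelium RNA, had 0.779 CPM. Ros1's difference between metastases and primary tumours was 3.94 ± 1.61 and did not pass (0.117). Epha4, Kit and Kdr followed with 0.57 ± 0.10 (0.00692), 0.41 ± 0.07 (0.00936) and 0.21 ± 0.04 (0.0111). Without metastases 2-3 and 2-4, the slope of Epha4 was 0.10 (0.473), that of Kit 0.57 (0.0744) and that of Kdr 0.39 (0.00465), and 8 receptors passed.

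**Figure D5:**
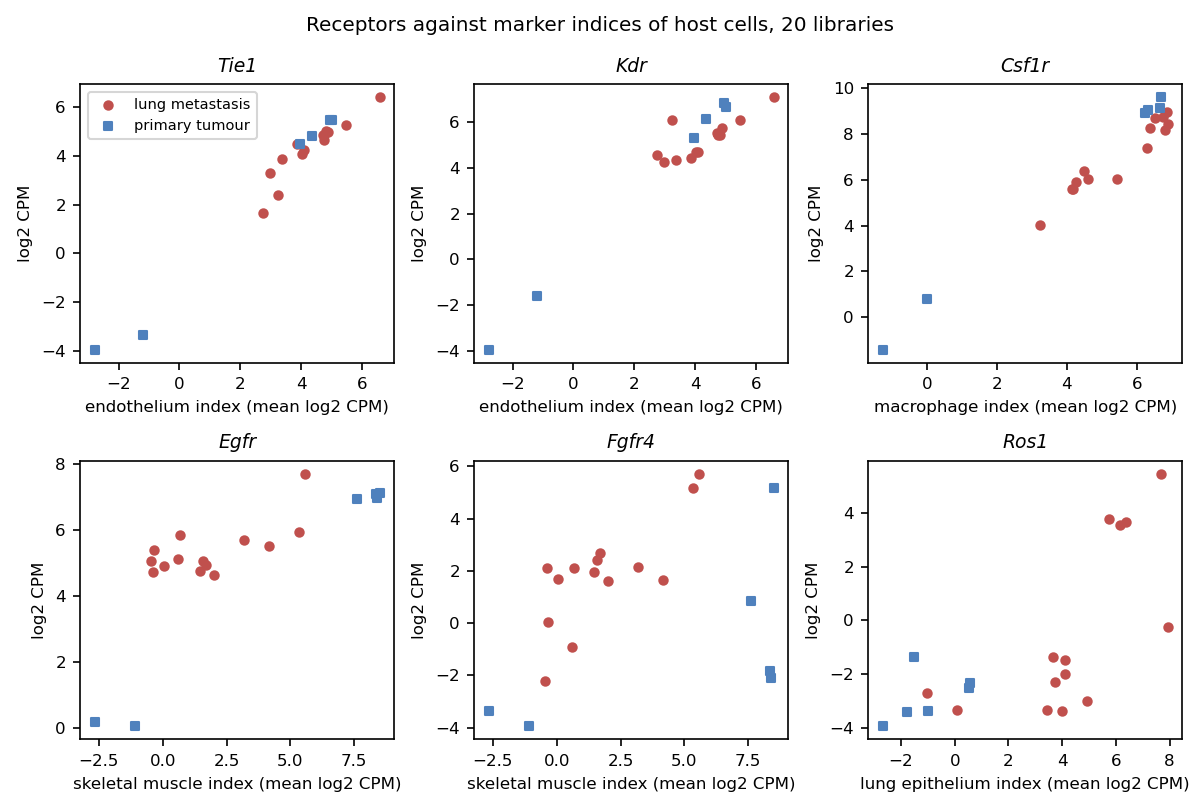
Log2 CPM of 6 receptors against the index of a host cell type (mean log2 CPM of its markers) in 14 lung metastases (red circles) and 6 primary tumours (blue squares). Tie1, Kdr and Csf1r lie lowest in the 2 primary tumours of lowest index, and Ros1 is high in 4 metastases and low in metastasis 1-1, at the highest lung epithelium index.

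Across the 4 indices, 19 of 46 receptors had at least 1 slope past the threshold and 27 had none, against 36.3% of all genes tested with at least 1, so the receptors' share lay near that of all genes. Of the 12 receptors called between metastases and primary tumours, 9 had none, as did 64% of all genes called there; Fgfr3 had a positive slope on endothelium, and Ddr2 and Ryk a negative one on skeletal muscle.

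The second question was whether metastases of different sets differed. Among the 12 metastases of sets 1, 2, 3 and 6, 0 of 47 receptors passed (edgeR, against 0.321% of all genes tested), with 16 at an unadjusted p under 0.05 and 12 called by a DESeq2 likelihood ratio test. Flt1, Ntrk3 and Ryk had the smallest p (adjusted p = 0.0905, 0.0914 and 0.0914). Flt1 ranged from 29.4 to 240 CPM, with a median of 56.7, in metastases and from 10.3 to 68.8 CPM, with a median of 52.8, in primary tumours. Ntrk3, a neurotrophin receptor, ranged from 0.307 to 2.11 CPM in metastases and from 0.204 to 0.997 CPM in primary tumours. Without metastasis 3-1, 8 receptors passed, without 2-4, 2 did, and without both 2-3 and 2-4, 11 did.

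The size of the difference between metastasis and primary tumour varied with the set for 3 of 46 receptors (6.52%, against 4.1% of all genes tested): Kdr (adjusted p = 0.00488), Flt3 (0.0265) and Tie1 (0.0413). Kdr in metastases minus primary tumour was -1.96 on the log2 scale in set 2 and -2.18 in set 3, but 6.27 in set 6. In set 4, Kdr stood at 67.6 CPM in metastasis 4-1, against 0 CPM in primary tumour 4. Tie1 differed by -1.26 in set 2 and -2.40 in set 3. It stood at 5.14 CPM in metastasis 4-1, against no count in primary tumour 4, and at 16.8 and 18.7 CPM in metastases 6-1 and 6-2, against 1 count in primary tumour 6. Flt3, the receptor of early blood and dendritic cells, differed by -1.34 in set 3 and stood at 2.30 and 2.15 CPM in metastases 6-1 and 6-2, against 1 count in primary tumour 6. Endothelium RNA moved in the same libraries; its part in these values was not tested.

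Some receptors grouped metastases across their labels; these were chosen after their values were seen and have no test. Tyro3 stood at 82.6 CPM in metastasis 2-4, 71.8 in 6-1 and 75.7 in 6-2, against 17.7 and 17.9 CPM in metastases 2-1 and 2-2. Ret, the GDNF receptor, stood at 14.2 CPM in 2-4 and 18.5 and 18 CPM in 6-1 and 6-2, and Ephb4 at 182, 174 and 199 CPM in the same libraries, so metastasis 2-4 was close to those of set 6 in all 3 receptors, as it was over the most variable genes; a mixed-up label was not tested. Fgfr4 stood at 52.6 CPM in metastasis 2-3, 35.8 in 3-1 and 35.7 in primary tumour 5, and at most at 6.38 CPM elsewhere. Erbb3 was also high in these, at 91.5, 56.3 and 43.4 CPM, and in metastasis 1-1, at 90.5 CPM. The 10 myogenic progenitor genes summed to 2450 CPM in metastasis 2-3, the highest of the metastases, whose median was 221 CPM. They summed to 1475 CPM in metastasis 3-1, 2373 CPM in primary tumour 5 and 114.5 CPM in metastasis 1-1. Metastasis 2-3 also held the most hepatocyte RNA, with Alb, the albumin gene, at 7350 CPM, and the highest Egfr of all libraries, at 207 CPM. Hepatocytes are known to express Egfr, Erbb3 and Fgfr4. The 5 hepatocyte genes summed to 5.43 CPM in metastasis 3-1, 0.148 CPM in primary tumour 5 and 0.218 CPM in metastasis 1-1. The part of either tissue in these values was not tested. Metastasis 1-1 had 67.5 CPM of Ntrk2, the BDNF receptor, against at most 6.90 CPM elsewhere, and the highest Tek, at 146 CPM.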

How the data were processed

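Total RNA of 20 mouse tumour samples was sequenced after Direct-zol extraction and Ribo-Zero Gold stranded library preparation, per the labels' protocols. Per the submitters' processing notes, Trimmomatic 0.36, STAR (version string 5.5.4b, doubtful as a release) and HTSeq were used with mm10; the sources used here name neither the annotation release nor the strand setting. The authors deposited whole-number counts per gene, without normalization. Symbols were matched for 51633 of 51826 identifiers; the other 193 held 0.017% of the counts.

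From these counts, edgeR 4.0.16 (R 4.3.3) gave TMM-scaled CPM and log2 CPM (prior count 2), and a robust quasi-likelihood test after filterByExpr (minimum count 10) with set and group, 13 residual degrees of freedom and Benjamini-Hochberg adjustment over 18452 genes at a threshold of 0.05. CPM per kb used the summed exon length of a GENCODE GRCm38 annotation. Differences between sets were tested among 12 metastases (19919 genes), variation of the group difference as a set by group interaction, and marker slopes with 7 (lung epithelium) or 12 residual degrees of freedom. The titles pair every metastasis to its primary tumour. As a check, deviations from the group means of a primary tumour and its metastases correlated at 0.208, -0.059, -0.223, 0.275, -0.084 and 0.35 in sets 1 to 6. These values were weak and of both signs, so they did not bear out the pairing, which rests on the titles. Metastases of a set may share an animal, which the block does not fully account for, so their sums were tried as an alternative. A floor of 3 counts limits a value of 0, for counting error only.

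The receptors, lists and tests were chosen with earlier results of these data known. Named were receptors past the threshold between the groups, the 8 of highest level per kb, the 3 of smallest p in each other test, and of ligands and regulators those past the threshold and the 3 of smallest p. Alternatives were DESeq2 1.42.0, limma 3.58.1 voom, other size factors, no filter, no block, summed metastases, marker indices as covariates and leaving out sets or libraries. On simulated counts for the group comparison (18166 genes), the test found 2% of 50 genes changed 1.5-fold, 14% at 2-fold, 54% at 4-fold and 74% at 8-fold. The simulation called 74 genes, against 2543 in the data, and drew the libraries as independent. Its shares are therefore not those of the reported test.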

Additional observations from a re-analysis of the deposited data

Results flagged for a closer look

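Among the 6 primary tumours, 9 of 44 receptors screened had 1 library far below the rest by Dixon's criterion on log2 CPM. This criterion flags about 1 in 20 groups by chance, counting both ends. Of 16634 genes at 1 CPM or more in a primary tumour, 18.5% were marked in the same direction, so the receptors' count lies near that of all genes. In primary tumour 4, Erbb2 stood at 2.19 CPM against a next value of 19.4, Pdgfra at 14.4 against 460, Pdgfrb at 4.33 against 142, and Tyro3 at 1.17 against 11.8. In the same tumour, Ror2 stood at 0 CPM against a next value of 7.21, Epha7 at 0.102 against 3.1, and Ephb3 at 0.204 against 13. In primary tumour 6, Flt1 stood at 10.3 CPM against a next value of 36.5 and Epha4 at 0.168 against 3.67. Both tumours held little endothelium, macrophage and skeletal muscle RNA, as given above, and the part of this in the 9 values was not tested.

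The difference between metastasis and primary tumour varied between sets for Kdr (adjusted p = 0.00488), Flt3 (0.0265) and Tie1 (0.0413) in edgeR's interaction test, which has only 1 primary tumour per set and so no spread among primary tumours within a set.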

How the results depend on the processing

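Directions of the 12 receptors called between metastases and primary tumours were the same in every alternative that gave them an adjusted p. The counts of calls were not the same. The 7 higher and 5 lower receptors became 5 and 6 with no replicate block, 10 and 7 by DESeq2, and by limma voom 8 and 7, but 3 and 6 with no filter on low counts, 0 and 0 with the metastases of each set summed, 3 and 5 when the model held the lung epithelium index, 17 and 6 when it held that of skeletal muscle, and 1 and 4 without sets 4 and 6, an alternative chosen after seeing the data. Leaving out each set in turn gave 2 to 8 higher and 1 to 7 lower.

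For ligands (6 higher, 7 lower) there were 3 higher with no replicate block, 12 higher by DESeq2, 1 and 0 with metastases summed, 1 higher with the lung epithelium and 12 with the skeletal muscle index, 3 and 3 without sets 4 and 6, and 2 to 9 and 2 to 7 with each set left out. For co-receptors and regulators (0 higher, 6 lower) there were 2 higher by DESeq2, 1 lower with metastases summed, 3 and 3 with the lung epithelium index, 8 higher with the skeletal muscle index, 3 lower without sets 4 and 6, and 0 to 1 and 2 to 5 with each set left out.

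Differences between sets (0 receptors called) numbered 12 by the DESeq2 likelihood ratio test, 4 with the lung epithelium index, 11 without metastases 2-3 and 2-4 (chosen after seeing the data) and 0 to 8 with each metastasis left out. The 3 receptors whose group difference varied between sets became 6 with no filter and 13 without metastases 2-3 and 2-4.

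Slopes on lung epithelium (4 positive, 0 negative) gave 1 negative with no replicate block, 8 positive without metastases 2-3 and 2-4, and 2 to 7 positive with each set left out. Slopes on skeletal muscle (9 and 2) gave 1 negative with DESeq2 size factors and also with no replicate block, 14 positive without metastases 2-3 and 2-4, 0 and 0 without sets 4 and 6, and 2 to 12 and 0 to 4 with each set left out. Slopes on endothelium (12 and 0) gave 1 negative with no replicate block, 6 and 1 without sets 4 and 6, and 10 to 13 and 0 to 1 with each set left out. Slopes on macrophages (9 and 0) gave 14 and 1 with no replicate block, 2 negative without sets 4 and 6, and 7 to 14 positive with each set left out. Without sets 4 and 6, 3 called slopes changed sign and lost their call: Flt3 on skeletal muscle (-0.0295), Egfr on endothelium (-0.2197) and Flt4 on macrophages (-0.0583). The cause of these changes was not tested.

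Limits: metastases of a set may share an animal, and the test over sets alone called 360 of all genes, so calls here rest on counting metastases as separate samples. Receptors under about 1 CPM, such as Erbb4, rest on few counts. On simulated counts, where far fewer genes were called than in the data, 14% of genes changed 2-fold were found. Receptors that did not pass may still differ.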
